A study of Mus musculus with 4 samples.

Results

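The genes described here are 9 members of the RGS family, the regulators of G-protein signalling, in mouse muscle cells treated with a glucocorticoid. They are the rows of the deposited count table whose symbol is Rgs2, Rgs3, Rgs4, Rgs5, Rgs10, Rgs12, Rgs14, Rgs16 or Rgs19, 9 of 23282 features. Chromatin-bound nuclear RNA was sequenced from C2C12 myotubes, the fused and differentiated form of a mouse myoblast line that the labels give as female. Cells of both groups had been deprived of steroids, and they then received vehicle or 1 µM dexamethasone, a synthetic ligand of the glucocorticoid receptor, for 2 h. Each group has 2 libraries, all from this 1 line, and no label says whether they came from separate cultures, so p-values measure the spread between these libraries, which may be technical.

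RGS proteins switch off signals from receptors that couple to heterotrimeric G proteins. A receptor that has bound its ligand loads the alpha subunit with GTP, and the RGS domain speeds the hydrolysis of that GTP, which lets the subunits come back together. Small RGS proteins of the R4 group (among these genes Rgs2, Rgs4, Rgs5 and Rgs16, with the longer Rgs3) are known for rapid control at the level of transcription, and Rgs2 acts with preference on the alpha subunits of the Gq class. The R12 group holds Rgs10, Rgs12 and Rgs14, and Rgs19 belongs to the RZ group, whose members act on Gi and Gz.

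Rgs2 had the lowest p among these genes, and 250 bases upstream of its start are shown beside those of Rgs4 and Rgs16, R4 relatives on the same chromosome. The sequences come from RefSeq (build GRCm38.p6), each 5′ to 3′ on the strand of its gene. Capitals mark matches, on either strand, to TGACG (the half-site of the cAMP response element), AGAACA (the half-site of the glucocorticoid response element) or TATAAA (the TATA box).
Rgs2: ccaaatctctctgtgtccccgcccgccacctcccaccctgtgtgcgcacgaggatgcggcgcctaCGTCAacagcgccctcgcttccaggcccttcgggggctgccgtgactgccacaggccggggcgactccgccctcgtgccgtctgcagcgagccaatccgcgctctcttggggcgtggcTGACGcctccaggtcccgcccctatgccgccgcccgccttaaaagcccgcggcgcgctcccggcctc
Rgs4: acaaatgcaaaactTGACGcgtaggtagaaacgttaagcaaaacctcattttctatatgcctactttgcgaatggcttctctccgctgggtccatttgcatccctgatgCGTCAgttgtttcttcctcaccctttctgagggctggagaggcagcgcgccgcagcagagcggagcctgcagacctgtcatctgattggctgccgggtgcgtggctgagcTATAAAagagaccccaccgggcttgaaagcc
Rgs16: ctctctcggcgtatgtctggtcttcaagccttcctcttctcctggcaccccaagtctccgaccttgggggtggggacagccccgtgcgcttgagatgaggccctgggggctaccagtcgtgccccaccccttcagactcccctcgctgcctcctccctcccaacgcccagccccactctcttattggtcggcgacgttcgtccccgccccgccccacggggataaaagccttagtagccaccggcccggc
The Rgs2 window is chr1:144004150-144004399 on the minus strand, that of Rgs4 is chr1:169747643-169747892 on the minus strand, and that of Rgs16 is chr1:153740103-153740352 on the plus strand. Rgs2 and Rgs4 each hold 2 matches to TGACG, which lie 185 to 181 and 67 to 63 bases before the Rgs2 start. Of 32851 RefSeq promoter windows of this length, 17.8% hold TGACG. The Rgs4 window alone of these 3 holds TATAAA (12.4% of all windows), and none of the 3 holds AGAACA (16.1%). Windows were matched for 8 of the 9 genes, 12 windows in all, and the full element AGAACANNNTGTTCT was in none of them. It is in 0.00913% of all windows, so these letters are rare in any stretch of this length. The full cAMP response element, TGACGTCA, was also in none of the 12 windows, and it is in 1.55% of all windows. A gene is counted next if any of its windows matched, whereas the shares of all windows are per window, so they are not alike. Of the 8 genes, 3 held TGACG (Rgs12 beside Rgs2 and Rgs4), 3 held AGAACA (Rgs3, Rgs12 and Rgs19) and 2 held TATAAA. Rgs5, a further R4 gene of chromosome 1, is not shown, and its window held no match to any of them.

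The 4 libraries held between 19631435 (vehicle replicate 1) and 88596296 (dexamethasone replicate 2) gene counts. The glucocorticoid response was present in both treated libraries: Fkbp5, a co-chaperone of steroid receptors, went from 21.5 and 21.6 to 1019 and 697 CPM (each count divided by its library's total, which the TMM method adjusts). Of 10 myotube markers 10 were higher on average in the replicate 1 libraries, where they summed to 130174 (vehicle) and 125530 (dexamethasone) CPM against 46830 and 45671 in replicate 2. Most of each sum was Ttn, at 118127 and 113355 CPM in replicate 1 and 41070 and 39943 CPM in replicate 2. The size of the difference varied, and the levels of Mymk overlapped between the replicate numbers (log2 difference 0.0116). The replicate 1 pair was above the replicate 2 pair without overlap in 31.8% of tested genes and below it in 32.1%. Vehicle replicate 1 also stood apart in genes of nerve cells. Snap25, a synaptic membrane protein, had 160 counts there and at most 4 in any other library, and Gad1, which makes the transmitter GABA, had 63 counts there and 0 in the others. Of 15 neural markers, a list added after these values were seen, 13 had a count, and 9 of those were highest in vehicle replicate 1. Summed over the list, the level was 258 and 196 CPM under vehicle and 202 and 176 CPM under dexamethasone, most of it from Camk2a, and Syn1 and Nrgn were listed at 0.

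Levels were first compared between the members, in CPM per kb of exon, since longer genes collect more reads. Rgs12 (ENSMUSG00000029101), a large protein with several domains beside the RGS domain, was the most abundant at 11.8 ± 0.998 (SD, n = 2) CPM per kb in vehicle cells, above 75.4% of tested genes. Rgs19 (ENSMUSG00000002458) followed at 3.80 ± 0.206 (SD, n = 2). The vehicle libraries of these genes did not overlap with those of any member below them. Rgs3 (ENSMUSG00000059810) and Rgs10 (ENSMUSG00000030844) came next at 1.80 ± 0.423 and 1.69 ± 0.221 CPM per kb (SD, n = 2 each), levels that do not differ beyond their spread. Then came Rgs14 (ENSMUSG00000052087), Rgs2 (ENSMUSG00000026360) and Rgs16 (ENSMUSG00000026475) at 0.594 ± 0.374, 0.448 ± 0.120 and 0.359 ± 0.109 CPM per kb (SD, n = 2 each), again not separable. Rgs4 (ENSMUSG00000038530) and Rgs5 (ENSMUSG00000026678) had the lowest mean levels.

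Rgs2 stood at another place in this order after dexamethasone. In vehicle cells it stood sixth, above 13.8% of tested genes, and after dexamethasone it stood second at 6.16 ± 3.49 (SD, n = 2) CPM per kb, above 58.1% of them. Its part of the summed level of the 9 genes was 2.73% and 1.65% under vehicle and 32.6% and 15.2% under dexamethasone. Rgs12 supplied 57.2% and 57.0% of that sum under vehicle and 45.7% and 56.8% under dexamethasone. After dexamethasone Rgs19 followed at 3.12 ± 0.132 (SD, n = 2) CPM per kb. The lower Rgs2 library, at 3.69 CPM per kb, lay above both Rgs19 libraries by less than the spread of Rgs2. Exon lengths are those of a GRCm38 annotation, whereas the submitters' processing notes name mm9, so these levels are approximate. Whether reads in introns were counted is not given, and chromatin-bound RNA can hold introns. With introns the genes span 90.2 kb (Rgs12), 144 kb (Rgs3), 5.56 kb (Rgs19) and 4.82 kb (Rgs2). If introns were counted, the order of the genes, their shares and their places among tested genes could differ in both groups.

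**Figure D1:**
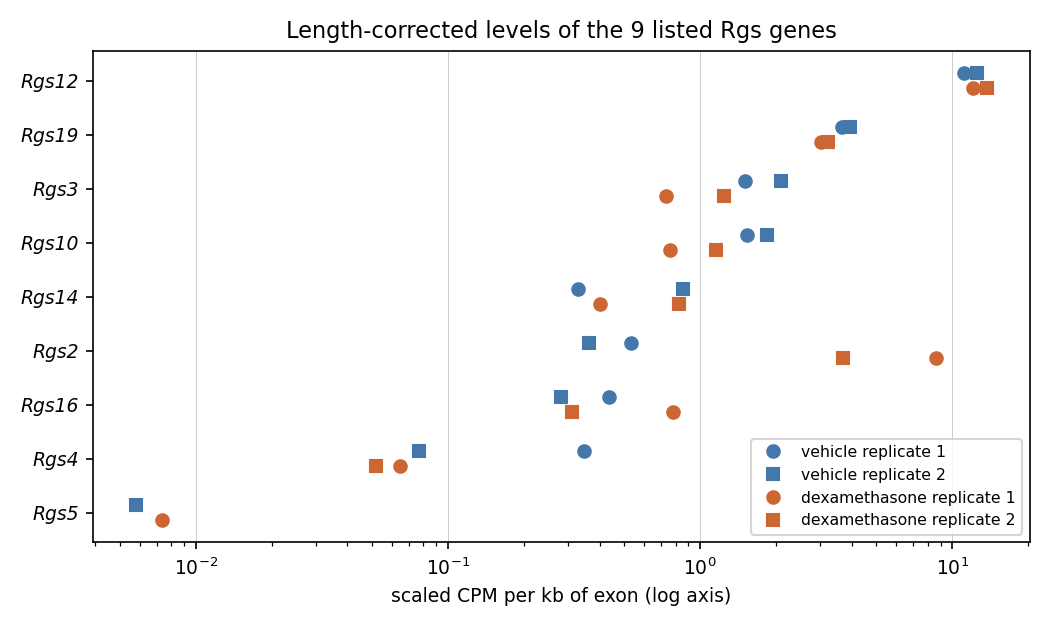
Scaled CPM per kb of exon (log axis) of the 9 listed Rgs genes in each of the 4 libraries, ordered by the vehicle mean; the 2 libraries in which Rgs5 had 0 counts are not drawn. Rgs2 is among the low genes in vehicle (mean 0.448) and second after dexamethasone (mean 6.16).

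Dexamethasone was then compared with vehicle across all genes, the question being which genes respond at the chromatin after 2 h. Of the 9 genes, 7 had enough counts to be tested among 13285, and Rgs4 and Rgs5 did not. None of the 7 passed an adjusted p of 0.05 (edgeR quasi-likelihood test, Benjamini-Hochberg adjustment over all genes, two-sided), where 0.0376% of all tested genes did, 5 in all. At an unadjusted p under 0.05 there was 1 of 7, Rgs2, which was higher, where 4.09% of all genes were higher and 1.69% lower at that level. DESeq2's Wald test and edgeR's likelihood ratio test each called 1 of the 7, Rgs2, and limma-voom called 0. DESeq2 called 1.78% of all genes higher and 0.399% lower, and the likelihood ratio test 1.83% and 0.339%. The 7 log2 fold changes had a median of 0.04, with 4 above and 3 below 0, beside 6601 above and 6684 below 0 and a median of -0.00159 over all tested genes. In 1 of the 7 the dexamethasone libraries were above the vehicle libraries without overlap, as in 15.0% of all genes, and in 3 they were below without overlap, as in 12.9%.

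**Figure D2:**
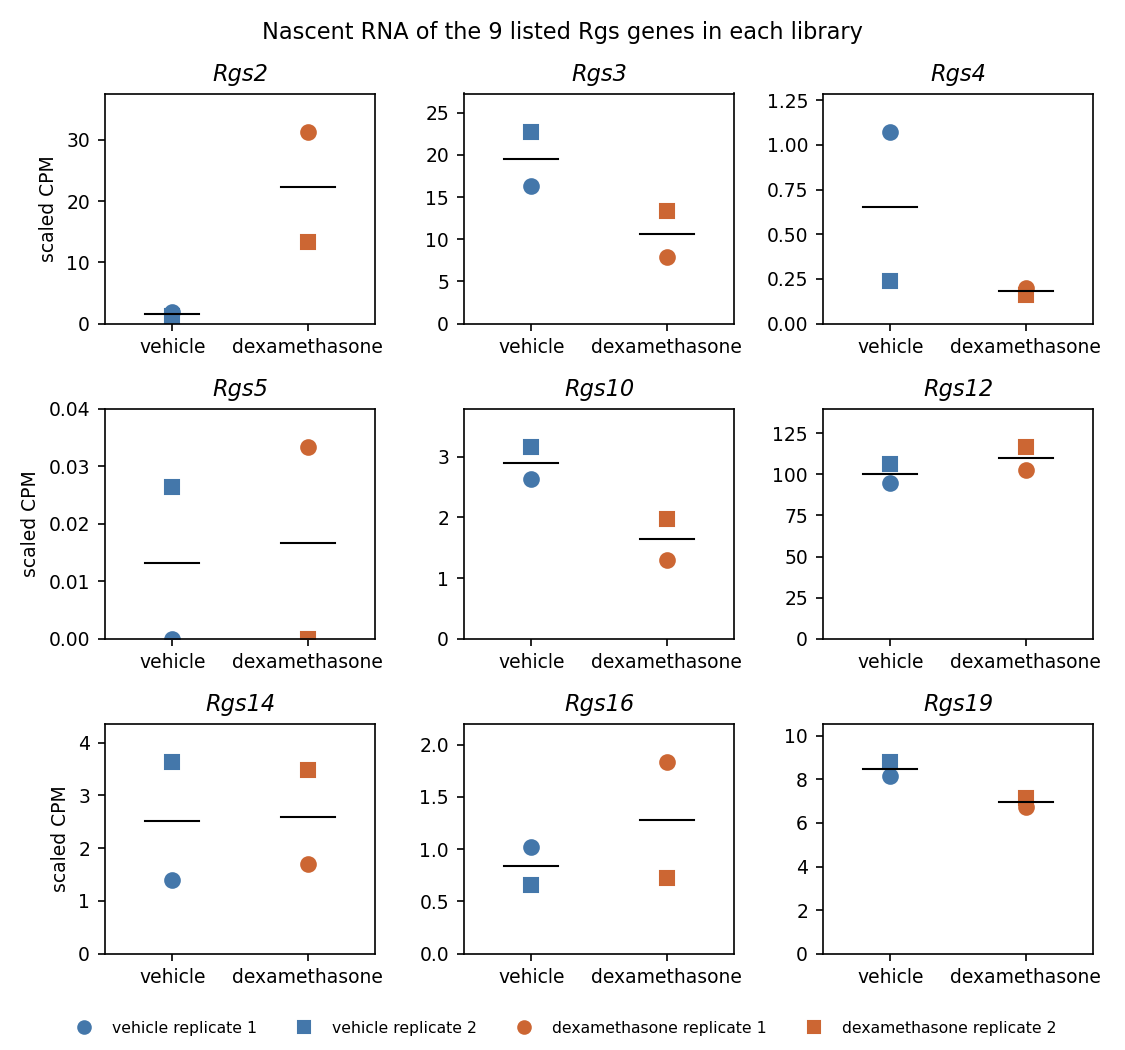
Scaled CPM (axes from 0, each with its own range) of each listed Rgs gene in the 2 vehicle and 2 dexamethasone libraries, with a line at each group mean; circles are replicate 1 and squares replicate 2. The Rgs2 libraries are at 1.93 and 1.32 in vehicle and 31.3 and 13.4 after dexamethasone. Those of Rgs3, Rgs10 and Rgs19 are lower after dexamethasone without overlap, as in 12.9% of all tested genes. So are those of Rgs4, which had too few counts to be tested.

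Of the R4 genes, Rgs2 differed most. It had 36 and 50 counts under vehicle and 938 and 1251 under dexamethasone, which is 1.93 and 1.32 CPM against 31.3 and 13.4 CPM. The groups were far apart, and the treated libraries differed from each other by more than counting error, with exact 95% Poisson intervals of 29.3 to 33.4 and 12.7 to 14.2 CPM. The means were 1.62 ± 0.434 and 22.3 ± 12.7 CPM (SD, n = 2 each), 13.8-fold apart. The edgeR log2 fold change was 3.80 (SE 0.536, 95% interval 2.38 to 5.22), the 16th highest of 13285, with an unadjusted p of 0.00125 and an adjusted p of 0.167. Within replicate 1 the log2 ratio was 3.99 and within replicate 2 it was 3.30, values that rest on 1 library per group and have no test. The adjusted p was 2.63e-12 in DESeq2 and 1.36e-08 in the likelihood ratio test, and 0.310 in limma-voom. When 1 library was left out, the edgeR adjusted p was 0.0913 without vehicle replicate 1 but 0.0331 when vehicle replicate 2 was dropped. It was 0.0402 without dexamethasone replicate 1 and 0.00691 when dexamethasone replicate 2 was dropped, where the lone library of a group is assumed to vary like the others. The fold change then ran from 3.07 to 4.29 (log2).

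Rgs16, an R4 gene known to be induced by many stimuli, had 19 and 25 counts under vehicle and 55 and 68 under dexamethasone. In CPM the vehicle libraries were at 1.02 and 0.659 and the dexamethasone libraries at 1.83 and 0.728. The groups overlapped, and both replicate 1 libraries were above both replicate 2 libraries. The log2 fold change was 0.60 (SE 0.604, 95% interval -0.996 to 2.20, edgeR adjusted p 1.000), and it turned to -0.18 without dexamethasone replicate 1. An antisense gene that is not used here shares 236 exonic bases with Rgs16 in the annotation, and whether counting used strand is not given in the sources used here.

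Rgs3, which has long and short forms that share the RGS domain, was lower after dexamethasone. It had 303 and 862 counts under vehicle and 238 and 1251 under dexamethasone, or 16.3 and 22.7 against 7.94 and 13.4 CPM. The higher dexamethasone library stayed below the lower vehicle library, and in both groups replicate 1 was below replicate 2. The log2 fold change was -0.86 (SE 0.332, 95% interval -1.74 to 0.01), with an unadjusted p of 0.0524 and an edgeR adjusted p of 0.884. The fold change was -0.54 without dexamethasone replicate 1 and -1.30 without dexamethasone replicate 2.

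Rgs4 and Rgs5 stand beside each other on chromosome 1 and had few counts. Rgs4, a regulator of Gi and Gq signals that is abundant in neurons, had 20 and 9 counts under vehicle and 6 and 15 under dexamethasone. This is 1.07, 0.237, 0.200 and 0.161 CPM, so that vehicle replicate 1 alone was high, with an exact 95% Poisson interval of 0.655 to 1.66 CPM against 0.108 to 0.450 in vehicle replicate 2. Vehicle replicate 1 is also the library with counts of Snap25 and Gad1, and the part of that signal in the Rgs4 value was not tested. The groups did not overlap, but without vehicle replicate 1 the 3 libraries lay between 0.161 and 0.237 CPM. Rgs5, known as a marker of pericytes, had 1 count each in vehicle replicate 2 and dexamethasone replicate 1 and 0 in the other two libraries, where 3 counts would be 0.161 CPM (vehicle replicate 1) and 0.0321 CPM (dexamethasone replicate 2). Both groups are under that limit, and no fold is given for Rgs5. The intervals and limits cover counting error only.

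Of the R12 genes, Rgs12 had the smallest SE of the 7 tested members. It had 1762 and 4041 counts under vehicle and 3079 and 10902 under dexamethasone, or 94.5 and 106 against 103 and 117 CPM. The groups overlapped, and its log2 fold change was 0.13 (SE 0.141), with a 95% interval of -0.25 to 0.50 and an edgeR adjusted p of 1.000. A doubling or a halving lies outside that interval. An antisense gene not used here shares 467 exonic bases with Rgs12.

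Rgs10, a small protein that is little more than an RGS domain, had 49 and 120 counts under vehicle and 39 and 184 under dexamethasone. These are 2.63 and 3.16 against 1.30 and 1.97 CPM, with no overlap. The log2 fold change was -0.81 (SE 0.344, 95% interval -1.72 to 0.10, edgeR adjusted p 0.953), and it was -0.55 without dexamethasone replicate 1. Rgs14, which also binds Ras-family and inactive Gi proteins, was separated by replicate number instead. Its libraries were at 1.39 and 3.64 CPM in vehicle and at 1.70 and 3.49 CPM after dexamethasone, from 26, 138, 51 and 326 counts, so both replicate 1 libraries lay below both replicate 2 libraries. The log2 fold change of Rgs14 was 0.04 (SE 0.605, 95% interval -1.56 to 1.64), and its sign turned when the libraries were scaled by their totals alone (-0.0068). The same split by replicate number held for Rgs12 (replicate 1 lower) and Rgs16 (replicate 1 higher), 3 of the 7 in all, beside 31.8% of all tested genes with replicate 1 higher and 32.1% with it lower, so such a split is common in these libraries. The myotube markers, higher in replicate 1, move with the same number, and their part in these levels was not tested.

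Rgs19, first known as a protein that binds the Gi alpha subunit, had 152 and 334 counts under vehicle and 202 and 668 under dexamethasone. It was at 8.15 and 8.80 CPM in vehicle and at 6.74 and 7.15 CPM after dexamethasone. The groups did not overlap but lay close together, and the log2 fold change was -0.29 (SE 0.181, 95% interval -0.77 to 0.19, edgeR adjusted p 1.000).

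**Figure D3:**
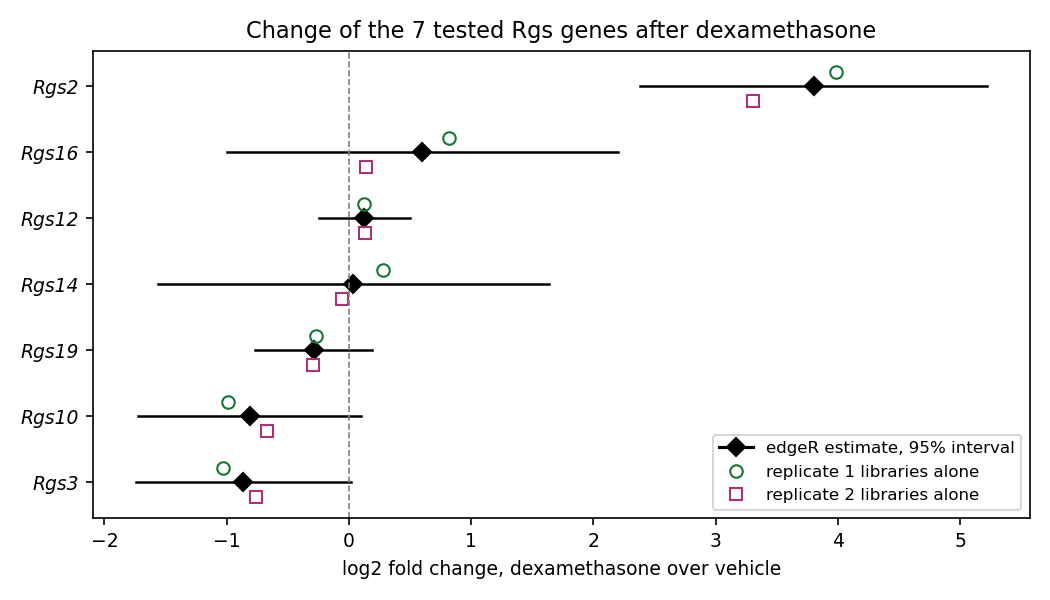
Log2 fold change, dexamethasone over vehicle, of the 7 tested Rgs genes: diamonds are edgeR estimates with 95% intervals, open symbols the ratio within each replicate number (1 library per group). Rgs2 at 3.80 is the 1 gene whose interval stays clear of 0; none of the 7 passed the adjusted threshold.

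Markers of other cells were read in the same libraries, and none was called. Among 4 markers of undifferentiated myoblasts, summed levels were 105 and 115 CPM in the vehicle libraries and 83.7 and 89.9 CPM after dexamethasone, with Pax7, a transcription factor of muscle stem cells, at a log2 fold change of -0.80 (SE 0.201, edgeR adjusted p 0.456). Cdh15, the myoblast cadherin that supplied most of the sum, was at -0.17 (SE 0.122), Pax3 at -0.94 (SE 0.429), and Myf5 in the other direction at 0.30 (SE 0.471). Of 11 markers of immune, endothelial, pericyte, neuronal and fat cells, 4 had enough counts to test, and the sums were 175 and 247 CPM against 101 and 146 CPM. Most of this was Pdgfrb, a growth factor receptor of pericytes and other mesenchymal cells, at -0.92 (SE 0.329, edgeR adjusted p 0.799), and the groups of Cd68, Pecam1 and Cspg4 overlapped. No library had more than 1 count of Ptprc, which marks blood cells. The 6 markers of cycling cells summed to between 23.2 and 28.0 CPM in all 4 libraries. The part of these markers in the lower Rgs3 and Rgs10 levels was not tested. In libraries of a whole culture, fewer cells of a type and less RNA per cell cannot be told apart.

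Rgs2 lies on chromosome 1 with other R4 genes, Rgs13 and Rgs1, next to it in the order of protein-coding genes, and Uchl5, Ro60 and Glrx2 on its other side. Rgs13 had 1 and 6 counts under vehicle and 15 and 27 under dexamethasone, 0.106 ± 0.0739 against 0.395 ± 0.149 CPM (SD, n = 2 each). Its groups did not overlap, with a log2 fold change of 1.67 (SE 0.695) and an edgeR adjusted p of 0.937. Rgs1 had between 1 and 3 counts in every library and was not tested. Uchl5, which encodes a deubiquitinase of the proteasome, was at 0.21 (SE 0.221), Ro60 at 0.13 (SE 0.305) and Glrx2 at -0.00 (SE 0.160) on the log2 fold change scale. The groups of these 3 overlapped.

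**Figure D4:**
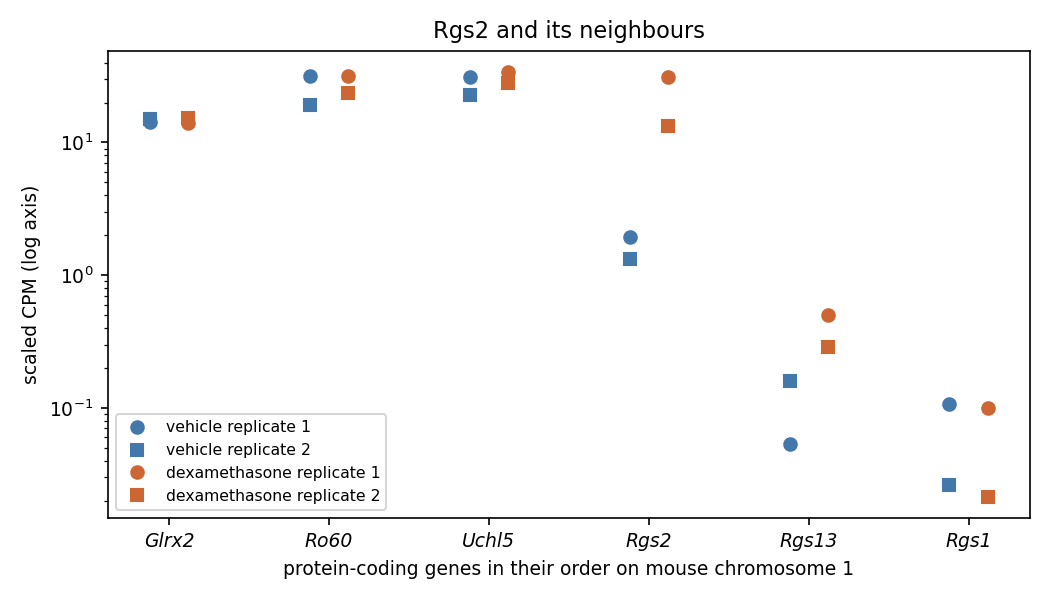
Scaled CPM (log axis) of Rgs2 and of the protein-coding genes beside it on mouse chromosome 1, in their order, in each of the 4 libraries. Vehicle and dexamethasone libraries separate at Rgs2 and Rgs13 and overlap at the other genes drawn.

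Among the genes whose profile over the 4 libraries was most like that of Rgs2 were Pi15 and Errfi1. Likeness was the root mean square difference of log2 CPM, each gene centred on its mean, and these were among the 3 nearest of all tested genes, at 0.142 and 0.305. Pi15, a secreted peptidase inhibitor, had 5.36 and 3.79 CPM under vehicle and 83.3 and 45.9 CPM under dexamethasone. Errfi1, a feedback inhibitor of the EGF receptor, went from 16.0 and 12.7 to 267 and 187 CPM. In both, as in Rgs2, replicate 1 was the higher library within each group. Their log2 fold changes were 3.83 and 3.98, with edgeR adjusted p of 0.123 and 0.0989. Both genes were picked for their likeness to Rgs2 in these same libraries. A similar replicate order and a similar fold change therefore follow from the choice and are no separate result.

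The other RGS-named genes gave 14 rows, of which 8 could be tested. None was called by edgeR, and 4 fold changes were above and 4 below 0, with a median of 0.01. Rgs20, like Rgs19 a member of the RZ group, had 28.4 and 34.7 CPM in the vehicle libraries and 17.2 and 22.1 CPM after dexamethasone. It was the 1 gene of this list with an unadjusted p under 0.05 (log2 fold change -0.68, SE 0.203, p 0.0235, edgeR adjusted p 0.609), where 1.69% of all genes were lower at that level. Rgs7, of the R7 group that pairs with Gnb5, was at 8.21 and 8.14 CPM in the replicate 1 libraries and at 18.3 and 19.6 CPM in the replicate 2 libraries. Rgs8, a neuronal R4 gene, had 22 counts in vehicle replicate 1 and 1, 1 and 3 in the others, the same library in which Snap25 was high. Of the proteins of other names that carry an RGS domain, 13 were in the table and 10 were tested, with fold changes from -0.27 to 0.09 and none called. The kinases Grk2 and Grk5, which phosphorylate active receptors, had the smallest p at -0.27 (SE 0.155) and -0.24 (SE 0.182). Arhgef12 and Snx14 were listed at 0 in all libraries, but they sit in unbroken runs of 164 and 371 minus-strand genes of chromosome 9 with 0 counts throughout, so they were not measured here.

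Of the alpha subunits on which RGS proteins act, 11 of 13 could be tested, and none was called. Gnao1, the alpha subunit of Go, had 4148 and 10363 counts under vehicle and 16336 and 52070 under dexamethasone. This is 223 and 273 against 545 and 558 CPM. The groups were well apart, with a log2 fold change of 1.15 (SE 0.157), an unadjusted p of 0.00107 and an edgeR adjusted p of 0.151. Gnal was next by p at -0.50 (SE 0.380, p 0.253), and the median of the list was -0.08, with 3 above and 8 below 0. The main Gq subunit gene, Gnaq, was at 421 and 418 against 374 and 396 CPM, with a log2 fold change of -0.12 (SE 0.122). Gnai2 lies in the same run of 371 genes listed at 0. Of the beta and gamma subunits, 12 of 15 were tested with 5 above and 7 below 0. Gng2 had 47.5 and 50.8 CPM in vehicle and 62.0 and 79.6 CPM after dexamethasone (log2 fold change 0.53, SE 0.171, edgeR adjusted p 0.714), and Gnb5 was at -0.28 (SE 0.157).

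Most of the tested effector genes lay below 0. Of 15 phospholipase C beta, adenylyl cyclase and potassium channel genes 10 were tested, none of them a channel gene. The median was -0.30 and none was called. Below 0 were 9 of the 10, beside 6684 of all 13285 tested genes. Adcy3 was at -0.46 (SE 0.175, p 0.0531) and Adcy1 at -1.29 (SE 0.611, p 0.0944), both adenylyl cyclases, with edgeR adjusted p of 0.884 and 1.000. For Adcy1 vehicle replicate 1 stood apart, with 5.20 CPM against 1.71 in vehicle replicate 2 and 1.60 and 1.21 after dexamethasone. Of the exchange factors, GoLoco proteins and arrestins, 7 of 8 were tested, all below 0 with a median of -0.23 and none called; Gpsm2 was at -0.52 (SE 0.253) and Arrb2 at -0.44 (SE 0.237). The N-end rule enzymes act in a pathway that leads to the destruction of Rgs4, Rgs5 and Rgs16 proteins. Their genes were close to 0 in 7 of 7 tested, from -0.06 to 0.11, with Ate1 at 0.11 (SE 0.117) and Metap2 at -0.05 (SE 0.117).

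Receptors that couple to G proteins, with the ligand gene Edn1 (endothelin) among the 19 listed, gave 15 tested genes. None was called, 9 were above and 6 below 0, and the median was 0.12. At an unadjusted p under 0.05, 5 were higher and 0 lower, beside 4.09% and 1.69% of all genes. Among them were S1pr3 (a sphingosine phosphate receptor, log2 fold change 1.39, SE 0.307), Lpar1 (a lysophosphatidic acid receptor, 0.59, SE 0.136), Edn1 (1.80, SE 0.450), and the adrenergic receptor Adra1b (1.27, SE 0.398). The edgeR adjusted p of these 4 ran from 0.354 for S1pr3 to 0.666 for Adra1b. In 6 of the 15 the dexamethasone libraries were above those of vehicle without overlap and in 3 below, beside 15.0% and 12.9% of all genes. This list was chosen with earlier results of these data known, so these shares do not test whether receptor genes respond more often.

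**Figure D5:**
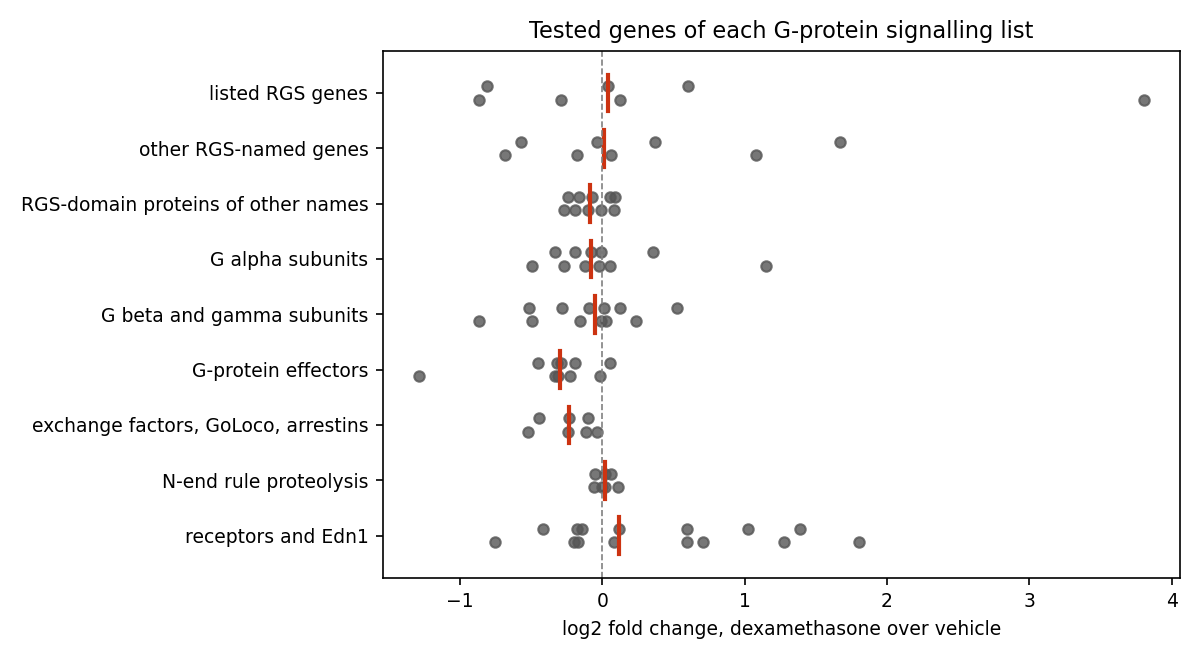
Log2 fold change, dexamethasone over vehicle, of every tested gene (points, spread vertically for legibility) in the listed RGS genes and the 8 other lists, with a bar at each median. Rgs2 (3.80) lies far from the other listed genes, and the medians run from -0.30 for effectors to 0.12 for receptors and Edn1.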

How the data were processed

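Chromatin-bound RNA was sequenced from 4 C2C12 myotube libraries. The deposited table holds raw read counts per gene, per the file headers. The submitters' processing notes name TopHat2 2.0.13, SAMtools 1.1, HTSeq 0.6.1, DESeq2 1.18.1 and mm9, without roles. Annotation, strand setting and intron counting are not given in the sources used here, and the labels name both a total RNA and an mRNA library kit. Groups and replicate numbers came from sample titles. Of 23333 rows, 51 repeated a gene with all its counts and were dropped, leaving 23282.

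Tests used edgeR 4.0.16 under R 4.3.3 (quasi-likelihood on the counts, group as the only term, TMM scaling, filterByExpr with a minimum count of 10 and total of 15, Benjamini-Hochberg adjustment over 13285 genes, threshold 0.05). The SE is the fold change divided by the root of the F statistic, and intervals use the residual (2) and prior (2.56) degrees of freedom. The log2 values per library carry a prior count of 2. Alternatives were other scalings and filters, DESeq2 1.42.0, limma-voom (limma 3.58.1), edgeR's likelihood ratio test, a replicate block and leaving out each library. The edgeR quasi-likelihood test was checked on simulated counts with the same dispersion for all genes and no difference between replicate numbers. That setting is simpler than these libraries, so the check does not show how the test behaves where replicate numbers differ. Exon lengths, strands and gene order came from GENCODE M21 and RefSeq, both GRCm38; 99.5% of tested genes had a length. All 9 members are named; of each list, the members past the threshold or else the 2 with the smallest p, and the 3 profiles nearest to the member with the smallest p. The members and lists were chosen with earlier results of these data known. Gnaq, Rgs7, Rgs8, the single cell type markers and the neural markers were named after their values were seen. The values of some genes that the rule names are not reported here.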

Additional observations from a re-analysis of the deposited data

How the results depend on the processing

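The number of genes called moved with the filter, the model of the spread and the libraries used. Against 5 higher and 0 lower, the test of every gene with a count called 23 higher, DESeq2's Wald test 236 higher and 53 lower, edgeR's likelihood ratio test 243 and 45, and limma-voom 0. Of the listed Rgs genes, against 0, DESeq2 called 1 and the likelihood ratio test 1, Rgs2 in both. A replicate block (the replicate number as a term) gave 913 higher and 768 lower genes (6.87% and 5.78% of those tested) and 2 listed genes were called, Rgs2 (log2 fold change 3.66, adjusted p 9.25e-05) and Rgs3 (-0.87, adjusted p 0.00241). The labels do not say that the number marks a shared culture or day, 2 pairs are too few to establish pairing, and 1 residual degree of freedom is left. The differences between the numbers correlated across genes between the groups (r = 0.734 over 13285 genes, which are not independent). Leaving out 1 library gave 4 (without vehicle replicate 1) to 84 (without vehicle replicate 2) higher genes, 24 without dexamethasone replicate 1 and 28 without dexamethasone replicate 2. It gave 0 to 109 (without vehicle replicate 2) lower genes and 0 to 1 listed gene. With all libraries, 58 of 63 alternative values of the 7 tested members kept direction and side of the threshold and 4 became stronger. The 1 that reversed was Rgs14 at -0.0068 with library size only. With a library left out, 22 of 28 kept both, 3 became stronger (all Rgs2) and 3 reversed: Rgs14 at -0.46 without vehicle replicate 1 and -0.58 without dexamethasone replicate 2, in a range of -0.58 to 0.92, and Rgs16 at -0.18 without dexamethasone replicate 1, in a range of -0.18 to 1.14. The cause of these reversals was not tested. Both genes were split by replicate number, and leaving out 1 library shares the numbers unequally between the groups. For Rgs14 the exact Poisson intervals were 0.911 to 2.04 (vehicle) and 1.27 to 2.24 CPM (dexamethasone) in replicate 1. In replicate 2 they were 3.06 to 4.30 and 3.12 to 3.89 CPM, so the Rgs14 split exceeded counting error. Those of Rgs16 overlapped in vehicle (0.614 to 1.59 and 0.426 to 0.973 CPM) but not after dexamethasone. The smallest library held 26 counts of Rgs14 and 19 of Rgs16, which limits the precision of their levels there.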
